A study of Drosophila melanogaster with 3 samples.

Results

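Transfer RNA genes were taken as the genes whose name in the Ensembl annotation of the dm6 assembly starts with "tRNA:" on arms 2L, 2R, 3L, 3R, 4 and X. There were 295 such genes among 18164 annotated genes, in 22 families by the amino acid in the name, with initiator methionine (iMet) and selenocysteine (SeC) counted as families of their own. They were spread over 146 genomic clusters, in which neighbours lay at most 5 kb apart, and 5 of them were annotated as pseudogenes. Binding was mapped by ChIP-seq in whole Drosophila melanogaster prepupae, the stage between larva and pupa, with males and females pooled and age not known. All samples were of 1 group of 3 biological replicates of strain CG34406-GFP, a transgenic line that carries CG44002 with eGFP joined to its C-terminal end, and there was no other genotype, treatment or time. Chromatin was sheared to fragments of 200 to 800 bp and precipitated with an antibody against GFP, while the antibody field of the labels reads CG34406. Because whole animals were used, the lists average over all cell types, and sites bound in few cells cannot be told apart from sites bound weakly in many.

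Transfer RNA genes are short genes transcribed by RNA polymerase III. Their promoter lies inside the gene, in an A box and a B box to which the factor TFIIIC binds, and TFIIIC then places TFIIIB just upstream of the start. Many families are present in identical copies, in flies often as tight clusters and often within introns of coding genes. Summits of CG44002-eGFP are given below as distances from the tRNA gene start on the strand of that gene, with negative values upstream.

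Few tRNA genes had a reproducible peak nearby. The authors' list of reproducible peaks, thresholded by the irreproducible discovery rate (IDR), held 7089 peaks. An IDR summit lay within 500 bp of the start of 14 of the 295 tRNA genes, here called bound. These 14 genes shared 11 summits, and 0 of these summits lay inside a tRNA gene, genes with a median length of 73 bp. Sequences of 4 bound genes are printed here, those of the strongest peaks (Tyr-GTA-1-8 and Gln-TTG-2-1), of the nearest summit (Ser-AGA-2-4) and of a further gene with a summit upstream (Leu-TAA-2-1), from the summit to the far end of the gene, on the gene strand, from the release 6 genome. Capitals mark the tRNA gene and lower case its flank, and the flank ends at the summit base. The sequence for tRNA-Tyr-GTA-1-8 is chr3R:8669081-8669373 on the minus strand, that for tRNA-Gln-TTG-2-1 is chrX:3427452-3427743 on the minus strand, that for tRNA-Leu-TAA-2-1 is chr3R:24112784-24113047 on the plus strand, and that for tRNA-Ser-AGA-2-4 is chr2L:3172957-3173084 on the minus strand.
tRNA-Tyr-GTA-1-8: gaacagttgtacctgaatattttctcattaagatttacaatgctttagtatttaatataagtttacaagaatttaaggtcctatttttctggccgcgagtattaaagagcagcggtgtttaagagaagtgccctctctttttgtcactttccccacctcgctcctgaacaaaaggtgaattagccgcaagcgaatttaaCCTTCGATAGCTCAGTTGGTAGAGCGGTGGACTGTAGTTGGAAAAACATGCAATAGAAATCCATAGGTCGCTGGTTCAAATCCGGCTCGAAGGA
tRNA-Gln-TTG-2-1: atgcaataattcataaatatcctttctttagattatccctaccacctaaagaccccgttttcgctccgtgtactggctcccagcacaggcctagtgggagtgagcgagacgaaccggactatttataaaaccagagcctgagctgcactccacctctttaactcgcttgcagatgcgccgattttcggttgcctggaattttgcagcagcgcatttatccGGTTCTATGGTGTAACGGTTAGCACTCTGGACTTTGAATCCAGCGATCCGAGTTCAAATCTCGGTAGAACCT
tRNA-Leu-TAA-2-1: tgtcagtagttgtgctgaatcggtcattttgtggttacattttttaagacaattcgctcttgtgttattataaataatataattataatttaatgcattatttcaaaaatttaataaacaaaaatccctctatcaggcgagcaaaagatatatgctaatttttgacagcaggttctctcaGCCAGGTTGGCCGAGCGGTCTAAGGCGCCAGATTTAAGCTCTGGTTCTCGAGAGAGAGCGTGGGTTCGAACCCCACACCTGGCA
tRNA-Ser-AGA-2-4: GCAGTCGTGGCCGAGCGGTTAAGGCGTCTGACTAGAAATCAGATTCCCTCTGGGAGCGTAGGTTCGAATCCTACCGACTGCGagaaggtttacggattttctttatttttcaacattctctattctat

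In the first 3 of these sequences the summit lies upstream of the tRNA gene, at the first base printed, and in the last it lies downstream, at the final base printed. The flank was 62.8% A or T for Tyr-GTA-1-8, 51.8% for Gln-TTG-2-1, 71.7% for Leu-TAA-2-1 and 73.9% for Ser-AGA-2-4, while the Tyr-GTA-1-8 gene itself was 52.1%, the Gln-TTG-2-1 gene 52.8%, the Leu-TAA-2-1 gene 39.3% and the Ser-AGA-2-4 gene 42.7%.

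The bound share of tRNA genes was 4.75% (95% exact binomial interval 2.62% to 7.83%). It was 16.8% for all 18164 genes, 19.5% for 13945 protein-coding genes and 8.15% for 3924 other noncoding genes. A gene was counted when any of its annotated starts had a summit, so genes with several starts had more positions at which to be counted. Of all positions on the 6 arms, 4.92% lay within 500 bp of an IDR summit, and this value fell inside the interval of the tRNA genes. The share of tRNA genes was therefore near that of arbitrary positions, and the 14 genes are described one by one below without a claim that tRNA genes as a group were bound. At 200 bp the counts were 5 tRNA genes (1.69%) and 2.06% of arm positions, and at 1000 bp 28 tRNA genes (9.49%) and 9.04% of arm positions. Intervals cover counting error only, and genes that share a summit are not independent.

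Each replicate was also taken alone, using its 7089 highest-signal peaks, called the top N. A top N summit lay within 500 bp of 20, 11 and 19 tRNA genes in replicates 1, 2 and 3, a mean of 16.7 ± 4.93 (SD, n = 3). Over all genes the shares were 17.9%, 17.7% and 17.4% in these replicates, and over tRNA genes they were 6.78%, 3.73% and 6.44%. Replicate 2 thus had the fewest tRNA genes while its share over all genes was between those of the other replicates. There were 11 tRNA genes with a top N summit in all 3 replicates, 2 with one in 2 replicates, 13 with one in 1 replicate and 269 with none. All 11 genes with a top N summit in every replicate were among the 14 bound genes, and the other 3 bound genes, a Glu cluster, had one in 1 replicate.

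The summits lay on both sides of the tRNA genes. At the 14 bound genes the summit was upstream of the start in 8 and downstream in 6, at 127 to 472 bp, with a median distance of 249 bp. The farthest counted was 472 bp from Val-CAC-2-5, and the nearest not counted was 557 bp from Leu-CAA-2-2 on 3L, followed by 585 bp from Gly-TCC-2-2. Replicate summits lay at most 60 bp from the IDR summit at 10 of the 11 places, while at the Glu cluster they were 53, 123 and 39 bp away in replicates 1, 2 and 3.

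**Figure D1:**
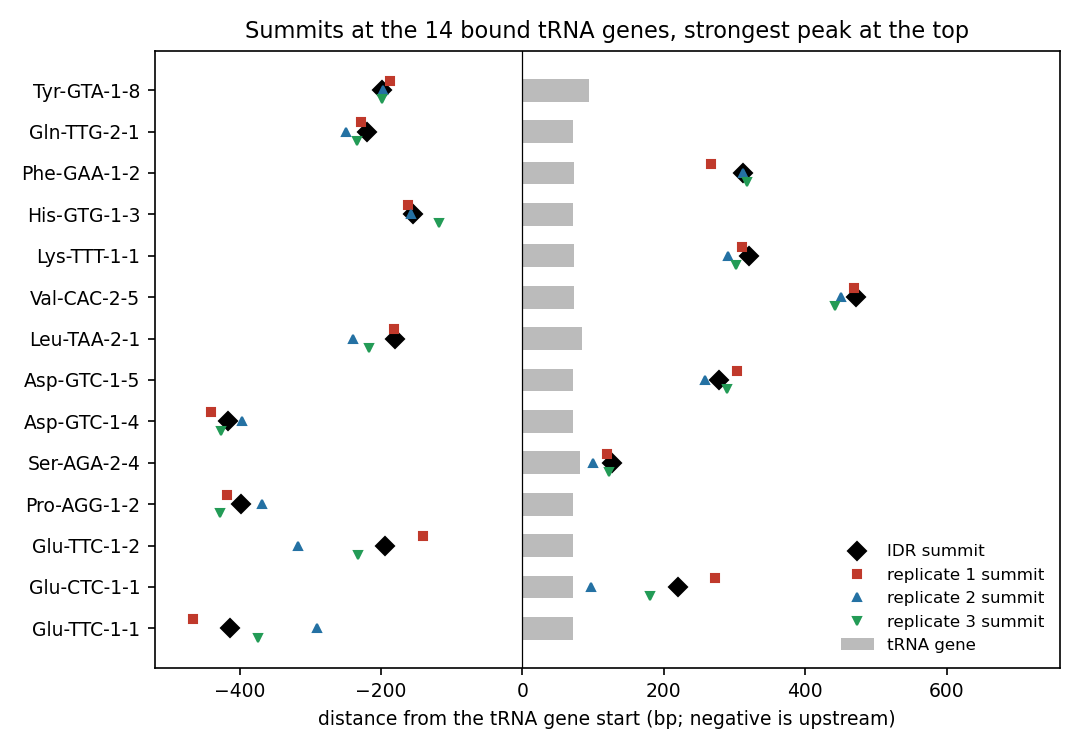
Position of the IDR summit (diamond) and of the nearest summit in each replicate list (square, triangle, inverted triangle) relative to the start of each of the 14 bound tRNA genes, in bp along the gene strand, with the gene drawn to scale as a grey bar. Of the IDR summits, 8 lie to the left of the start and 6 to the right, and none lies on a grey bar.

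The strongest peak was at Tyr-GTA-1-8 on 3R, a gene for a tRNA that carries tyrosine. Its signal, the authors' peak value on a scale that is not stated, was 343, 262 and 211 in replicates 1, 2 and 3, and 828 in the pooled list. These signals placed it at rank 181, 203 and 195 of the replicate lists and at rank 184 of the IDR list, so all 3 replicates ranked it alike. Its summit lay 199 bp upstream of the tRNA start and 245 bp upstream of a start of CG8036, a coding gene within which the tRNA gene lies. The neighbouring Tyr-GTA-1-7 lay 668 bp from the same summit and was not counted.

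The other strong peak was at Gln-TTG-2-1 on X, a gene for a glutamine tRNA in an intron of CG12535. Signals were 238, 208 and 155 in replicates 1, 2 and 3, at ranks 425, 352 and 439, and the IDR rank was 396. The summit lay 220 bp upstream of the tRNA start. No other annotated start was within 500 bp, and the nearest coding start, of CG14269, was 8064 bp away. Among the 11 summits these were the only ones in the first 500 ranks of the IDR list, and the other 9 had ranks of 1728 to 5491.

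Coding starts lay near about as many of these summits as not. Of the 14 bound genes, 7 had a summit that was also within 500 bp of a coding start, at 6 of the 11 summits, and at 5 genes the summit was nearer to the coding start than to the tRNA start. Of all 7089 IDR summits, 2359 (33.3%) were within 500 bp of a coding start. The summit 312 bp downstream of the Phe-GAA-1-2 start on X was 7 bp from the start of RpL17, a ribosomal protein gene, and ranked 1578, 2773 and 1386 in replicates 1, 2 and 3. At His-GTG-1-3 on 2R the summit lay 155 bp upstream of the tRNA start and 95 bp upstream of CG8490, with ranks 1554, 1503 and 2446. A single summit on 2L was 278 bp downstream of Asp-GTC-1-5 and 416 bp upstream of Asp-GTC-1-4, divergent copies of 1 aspartate tRNA gene. It lay 108 bp upstream of Sema1a, which encodes a transmembrane semaphorin of axon guidance, and ranked 2747, 2560 and 3180. At Val-CAC-2-5 on 3R, inside Naam, a nicotinamidase gene, the summit 472 bp downstream was 427 bp downstream of the Naam start and ranked 2097, 5184 and 1541. The summit at Leu-TAA-2-1 on 3R lay 180 bp upstream of the tRNA start and 395 bp upstream of CG13605, with ranks 2676, 2342 and 2858. The coding start nearest to this tRNA gene was that of Root, 322 bp away, which encodes the ciliary rootlet protein. All of these ranks are inside the top N of their replicate.

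Away from coding starts, 7 bound genes at 5 summits remained, with Gln-TTG-2-1 among them. The summit 320 bp downstream of the start of Lys-TTT-1-1 on 2L was in an intron of Btk, which encodes a cytoplasmic tyrosine kinase, 6077 bp from its start, and ranked 2147, 2207 and 1891. The summit 398 bp upstream of Pro-AGG-1-2 on 2L was intergenic, 10227 bp from the nearest coding start, and ranked 3751, 3200 and 6038. A summit on 2R within an intron of mrj, which encodes a J-domain chaperone, counted for 3 glutamate tRNA genes, at 194 bp upstream of Glu-TTC-1-2, 220 bp downstream of Glu-CTC-1-1 and 413 bp upstream of Glu-TTC-1-1. Signals there were 35.6, 7.07 and 67.2 in replicates 1, 2 and 3, at ranks 7376, 28238 and 2041. The replicates therefore differed widely at the Glu cluster, and replicate 3 alone had it in the top N, whereas the other 10 summits were in the top N of all 3.

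**Figure D2:**
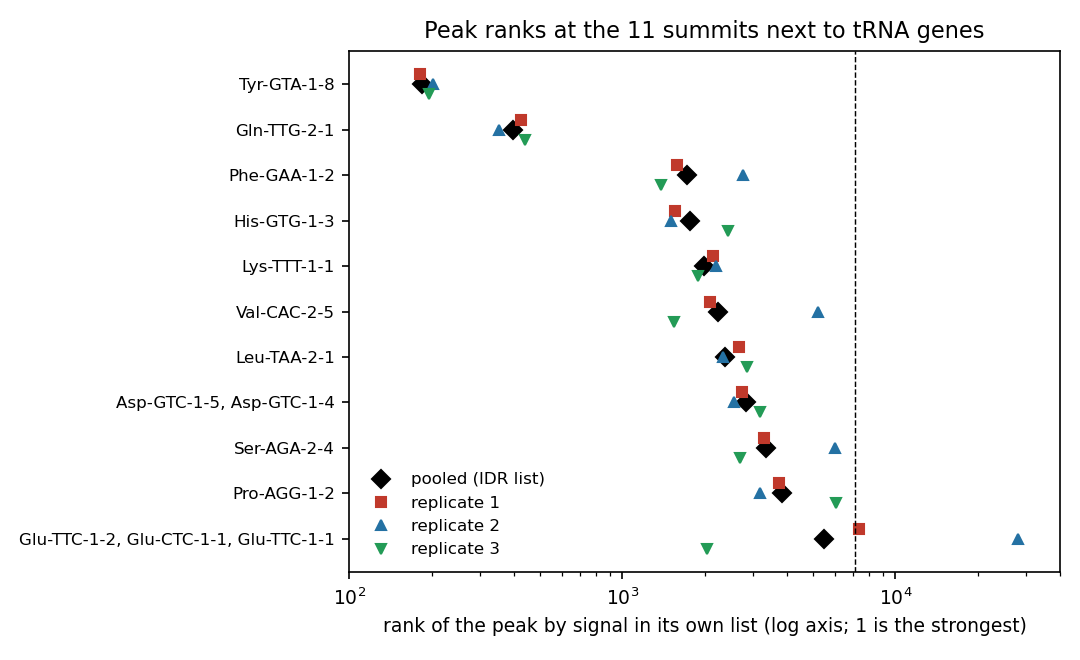
Rank by signal of the peak at each of the 11 IDR summits next to tRNA genes, in the pooled list (diamond) and in each replicate list, on a log axis where 1 is the strongest peak, with the dashed line at rank 7089. Tyr-GTA-1-8 and Gln-TTG-2-1 lie leftmost in all lists, and the Glu summit is the one whose ranks in replicates 1 and 2 (7376 and 28238) lie past the line.

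The remaining summit was next to the tagged gene itself. Ser-AGA-2-4 and Ser-AGA-2-3, genes for a serine tRNA, flank CG44002 on 2L (3169820 to 3171092), at gaps of 1911 bp and 157 bp. The summit 127 bp downstream of the Ser-AGA-2-4 start lay 1865 bp upstream of the CG44002 start and 158 bp upstream of CR44003, the pseudogene next to it. It ranked 3305, 6006 and 2696 in replicates 1, 2 and 3, and Ser-AGA-2-3 had no summit within 500 bp in any list. The sources used here do not give how much flanking DNA the CG44002-eGFP transgene carries, and its part in this peak was not tested. Without these Ser genes, 13 of 293 tRNA genes were bound, at 10 clusters.

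Split by whether a coding start lay within 500 bp of the tRNA start, 5 of 33 tRNA genes with one were bound (15.2%, interval 5.11% to 31.9%) and 9 of 262 without one (3.44%, interval 1.58% to 6.42%). In replicates 1, 2 and 3 the top N counts were 8, 5 and 7 of the 33 genes and 12, 6 and 12 of the 262 genes. The intervals of the tRNA genes with and without a coding start overlapped, and no test was made. Other noncoding genes showed 15% with a coding start nearby (95 of 633) and 6.84% without one (225 of 3291), the first close to the share of tRNA genes and the second above their interval. In the pooled list 8 of 33 tRNA genes near a coding start had a summit (24.2%, interval 11.1% to 42.3%). Without a coding start it was 76 of 262 (29%, interval 23.6% to 34.9%). The order was the other way, but the first interval held the whole of the second. Other noncoding genes had 40.9% and 23.2%. By contrast, lying inside a coding gene went with little difference: 7 of 137 tRNA genes inside one were bound (5.11%) and 7 of 158 outside (4.43%).

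Weaker peaks were found next to many more tRNA genes. In the pooled list of 30000 peaks, 84 tRNA genes (28.5%, interval 23.4% to 34.0%) had a summit within 500 bp, at 71 distinct summits, against 36% of all genes, 38.9% of coding genes, 26.1% of other noncoding genes and 18.4% of arm positions. At this distance the interval of the tRNA genes held the value of the other noncoding genes and lay above that of the arm positions. Genes that share a summit are not independent, so the intervals given here are too narrow. At 200 bp the interval of the tRNA genes held the arm share as well, with 32 tRNA genes (10.8%, interval 7.54% to 15.0%), 13.3% of other noncoding genes and 8.33% of arm positions. In the full replicate lists, also of 30000 peaks, the counts were 84, 63 and 98 tRNA genes in replicates 1, 2 and 3 (28.5%, 21.4% and 33.2%), a mean of 81.7 ± 17.6 (SD, n = 3). Other noncoding genes had 26.8%, 26% and 25.8% in these lists and arm positions 18.4%, 18.9% and 18.4%. The interval of the tRNA genes held the arm share in replicate 2 (16.8% to 26.5%), and in replicate 3 it lay above the share of other noncoding genes (27.9% to 38.9%), so the order depended on the replicate. At 10000 pooled peaks 27 tRNA genes (9.15%) had a summit, against 10.5% of other noncoding genes and 6.8% of arm positions, and at 1000 peaks 2 (0.678%), against 1.35% and 0.736%.

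**Figure D3:**
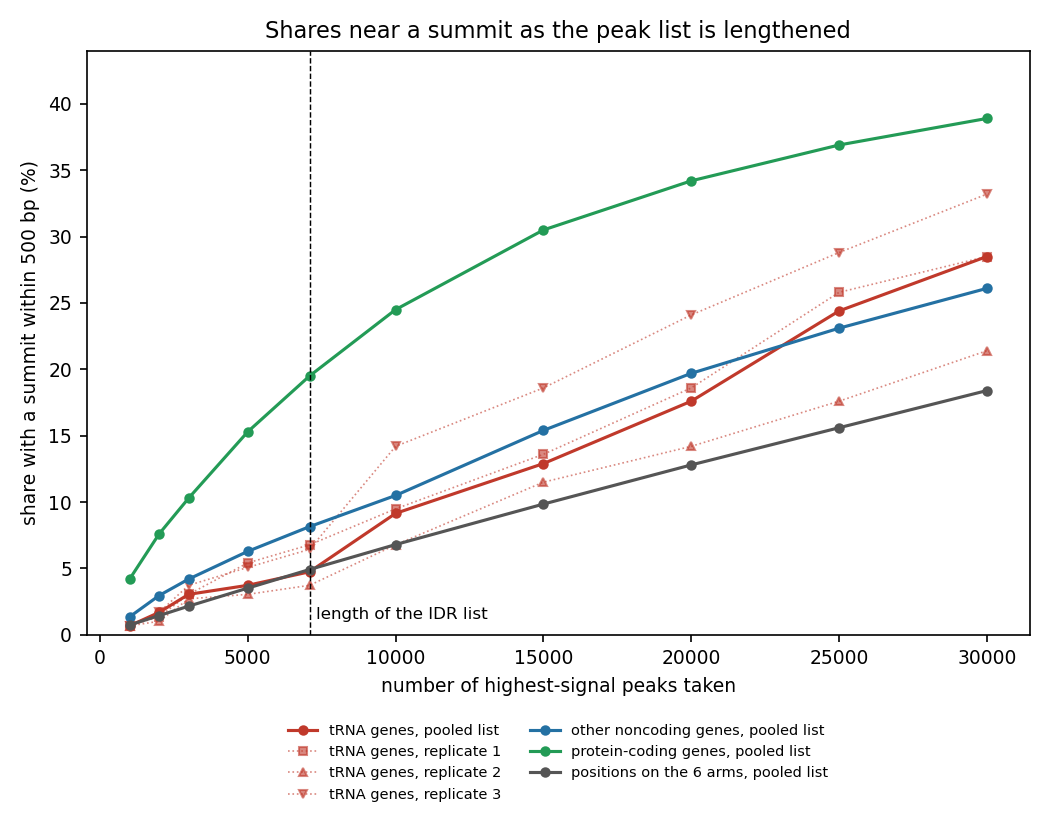
Share of tRNA genes (red; pooled list solid, replicates dotted), other noncoding genes, protein-coding genes and arm positions with a summit within 500 bp, in percent, as the number of highest-signal peaks taken grows from 1000 to 30000. The red solid line meets the grey line of arm positions at the length of the IDR list (4.75% and 4.92%) and ends near the blue line of other noncoding genes (28.5% and 26.1%), while coding genes stay above.

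Among these 84 genes, 70 had no IDR summit, and their pooled ranks ran from 7481 to 29557 with a median of 18547.5. Of the 70, 18 had a summit within 500 bp in all 3 full replicate lists, at 15 pooled summits, 29 in 2 lists, 20 in 1 list and 3 in none. All 14 bound genes had one in all 3 lists, and 151 tRNA genes had no summit in any list. A pooled summit fell inside the tRNA gene for 5 genes, and inside 4, 4 and 9 genes in replicates 1, 2 and 3. Upstream positions made up 50 of the 92 pooled summit-to-gene distances, and 55 of 99, 37 of 71 and 73 of 127 in replicates 1, 2 and 3, so neither side of the start prevailed by much in any list.

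By amino acid, bound genes came from 11 of the 22 families. The Glu family had 3 of 21 genes and Asp 2 of 14, each from 1 summit, and Gln, His, Leu, Lys, Phe, Pro, Ser, Tyr and Val had 1 gene each. No gene was bound in the families Ala, Arg, Asn, Cys, Gly, Ile, Met, iMet, SeC, Thr and Trp, with Arg the most numerous at 26 genes. In the pooled list 19 families had a summit. Pooled summits lay next to 11 of 17 Pro genes (64.7%), 5 of 7 Cys genes (71.4%), 6 of 12 Gln genes and 3 of 6 iMet genes, but next to 1 of 20 Gly genes, 1 of 18 Thr genes, and 0 of 10 Asn and 0 of 6 Met genes. Over all 295 tRNA genes the pooled share was 28.5%, as given above. The replicates differed at these families. In the full lists of replicates 1, 2 and 3 the Pro counts were 7, 8 and 11, and 5 Pro genes with a pooled summit had one in all 3. For Cys the counts were 4, 2 and 4, for Gln 4, 2 and 5, and for iMet 1, 0 and 2, with 0, 1 and 0 genes in all 3 lists. Gly had 4, 3 and 5 genes, Thr 3, 2 and 2, Asn 0, 0 and 2, and Met 2, 0 and 2. The families are small, their genes share summits, and the families named for their high and low shares were chosen after the values were seen.

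**Figure D4:**
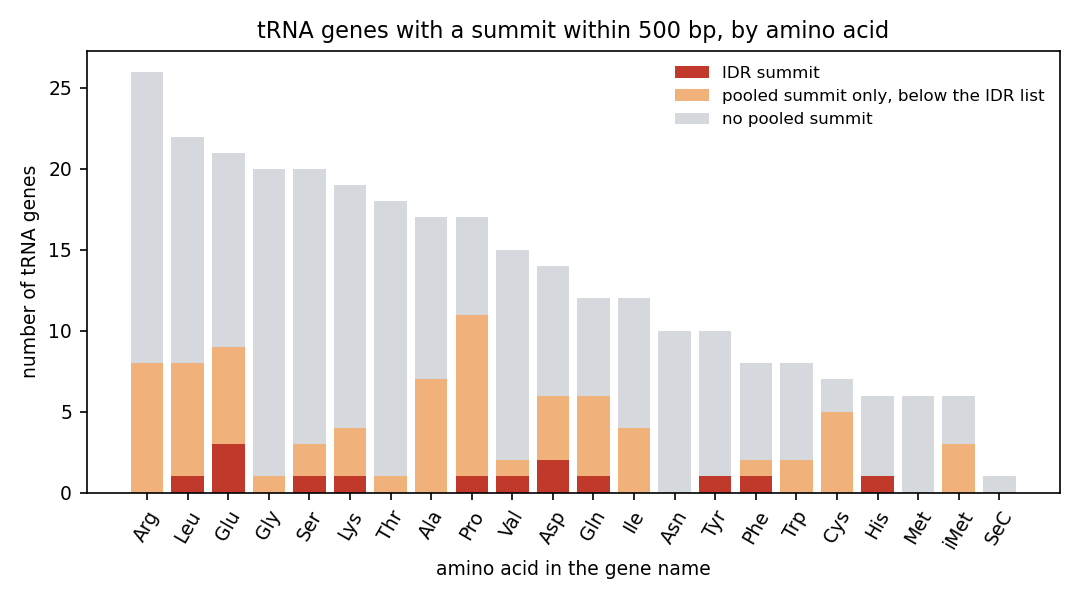
Number of tRNA genes per amino acid family, split into genes with an IDR summit within 500 bp (red), with a pooled summit only (orange) and with no pooled summit (grey). Red segments reach 3 genes at most, for Glu, and orange makes up most of the coloured part in Pro, Ala, Arg and Leu.

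Identical copies of a tRNA gene differed in whether they were next to a summit. Of the 14 bound genes, 9 had identical copies elsewhere and 5 had a sequence of their own, against 238 and 57 of all 295. The whole gene was compared, any intron included, so copies that differ only there counted as different. Tyr-GTA-1-8 is among the 5, although other genes share the name Tyr-GTA-1. Asp-GTC-1 had 12 copies with 2 bound, Phe-GAA-1 had 8 with 1 bound, Val-CAC-2 had 6 with 1 bound, and His-GTG-1 and Ser-AGA-2 had 5 each with 1 bound. Of the 7 copies of Pro-AGG-1, 6 lay next to a pooled summit, the bound copy included, and Pro-AGG-1-6 did not. Among these, Pro-AGG-1-7 on 3L had a pooled summit 10 bp from its start at rank 8811, and its strongest nearby peaks ranked 13961, 7167 and 7487 in replicates 1, 2 and 3. Of the 6 copies of Glu-TTC-1, 4 lay next to a pooled summit, and these included the 2 bound copies. The sources used here do not say how reads that match several copies were placed, so the values inside a copied gene are uncertain. The bound summits all lay in flanking DNA, but whether the placing of reads affected where summits were called was not tested. Some peaks still reached into copied genes. The peak at Ser-AGA-2-4 spanned the whole gene, and that of the Glu cluster ended inside Glu-TTC-1-2.

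The largest cluster with an IDR summit within 500 bp of a member held 5 genes. A cut at 6 or more genes, as used below, thus gives 0 by where it was placed. Bound genes were in 11 of the 146 clusters. Among single genes 5 of 77 were bound, in clusters of 2 to 3 genes 8 of 120, in clusters of 4 to 6 genes 1 of 54, and in clusters of 7 or more 0 of 44. The 9 clusters of 6 or more genes held 68 tRNA genes, of which 0 were bound and 21 had a pooled summit. By the limit of 3 counts, which is 3 divided by the number of genes, 0 of 68 gives 4.41% and 0 of 44 gives 6.82%. This limit is lower than the upper end of an exact interval. For 0 of 108 genes it is 2.78%, against an exact 3.36%. The values are close to the 4.75% of all tRNA genes, and genes of a cluster share summits, so these counts do not set large clusters apart. Pooled summits were next to 16 of the 44 genes in clusters of 7 or more (36.4%), the highest of the size classes, against 29.9% of single genes, 26.7% in clusters of 2 to 3 and 24.1% in clusters of 4 to 6. In the same order of classes the distinct pooled summits numbered 11, 25, 27 and 8. The ranking by genes thus counts neighbours at 1 summit more than once. An 8-gene cluster on 2R alone gave 6 of the 16 genes. Both of the biggest clusters held 11 genes. The one on 2R (6161535 to 6171759), with Arg, Asn, Ile and Lys genes, had a pooled summit at 1 gene. The one on 3R (17617761 to 17631750), with Ala, Pro, Thr and Val genes, had pooled summits at 7 genes. Its strongest pooled summit, rank 7917, lay between Ala-AGC-2-5 and Pro-TGG-1-3 and ranked 9702, 8692 and 7344 in replicates 1, 2 and 3. Another, rank 14960, was 2 bp from the start of Pro-TGG-1-2, and the strongest peaks with a summit within 500 bp of that start ranked 23069, 13699 and 9793 in replicates 1, 2 and 3. Both places thus had a peak in every replicate, though each was below the top N in all 3.

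**Figure D5:**
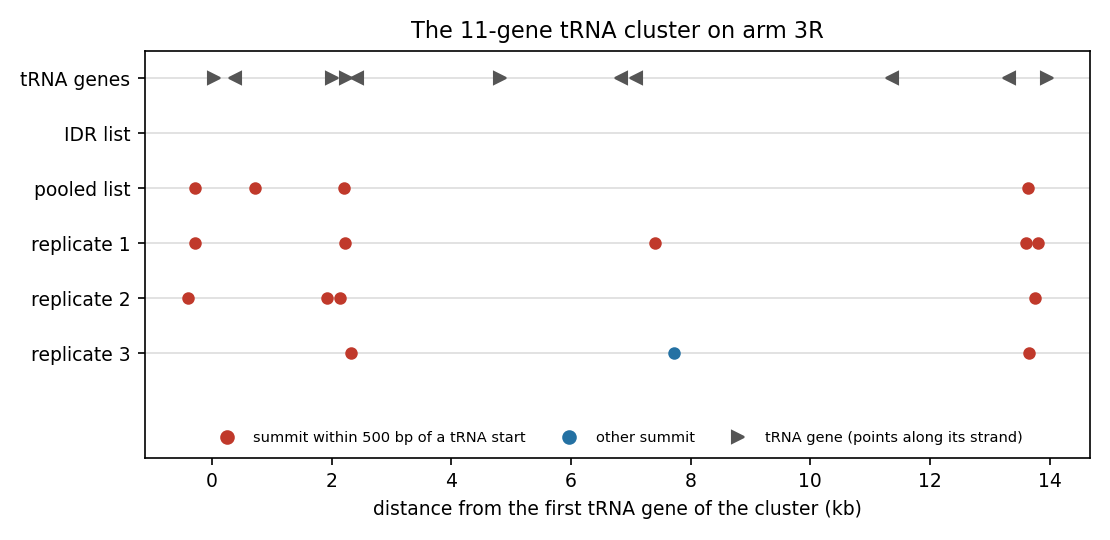
Map of the 11-gene cluster on 3R, with tRNA genes as arrowheads along their strand and summits of the IDR, pooled and replicate lists as dots, against distance from the first gene in kb. The IDR row is empty, and all 3 replicates have summits near 2 kb and near 14 kb.

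By arm, 5 of 41 tRNA genes were bound on 2L (12.2%), 4 of 100 on 2R (4%), 0 of 49 on 3L, 3 of 79 on 3R (3.8%) and 2 of 26 on X (7.69%), and arm 4 had no tRNA gene. Over all arms the shares were 4.75% of tRNA genes, 16.8% of all genes and 4.92% of arm positions. Shares of all genes on single arms are not given here, so these counts do not rank the arms. Those on 2L include 2 Asp genes at 1 summit and the Ser gene near CG44002. Those on 2R include 3 Glu genes at 1 summit, in the top N of replicate 3 alone. On 3L the top N counts were 4, 0 and 1 in replicates 1, 2 and 3. The 4 genes of replicate 1 were neighbours, Cys-GCA-1-1, Cys-GCA-1-2, Cys-GCA-1-3 and Lys-CTT-1-12. All 4 shared 1 peak of rank 5701 there and had no summit within 500 bp in replicate 2. They were named after their values were seen.

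Between 500 and 1000 bp a further 14 tRNA genes had their nearest IDR summit. The strongest of these summits after that of Tyr-GTA-1-7 was 815 bp upstream of Val-TAC-1-1 on 3L, at IDR rank 309 and replicate ranks 259, 531 and 212. It was 182 bp upstream of a start of CG46456. Ala-AGC-2-1, in an intron of nmo, a gene for a Nemo-like kinase, had summits at 590 bp and 790 bp, with IDR ranks 6721 and 1675. Gly-GCC-1-6 on 2L had an intergenic summit 734 bp upstream at rank 2275. Arg-TCT-1-1 and Met-CAT-1-1 on 2R shared a summit of rank 4073, at 678 bp and 888 bp, which was 96 bp upstream of a start of CG34228. Pro-AGG-1-7 was 828 bp from a summit of rank 1971, Ser-AGA-2-2 831 bp from one of rank 6762, Glu-CTC-3-1 881 bp from one of rank 2229, Thr-AGT-1-1 910 bp from one of rank 2101 and Leu-AAG-1-4 944 bp from one of rank 5680. His-GTG-1-2 lay 916 bp from the summit counted for His-GTG-1-3.

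The DNA just upstream held somewhat less A or T at bound tRNA genes than at the others. In the 100 bp before the start the mean was 60.3% ± 6.67 in the 14 bound genes and 63.2% ± 7.93 in the 281 other tRNA genes (SD over genes), in 50 bp it was 55.4% ± 6.77 and 59.7% ± 9.04, and in 200 bp 61.9% ± 7.50 and 64.1% ± 6.63. Over the top N genes of each replicate the mean for 100 bp was 59.6% ± 1.41 (SD, n = 3). These gene sets overlap and the genome sequence is the same for all, so this SD shows only which genes entered each set. The bound genes share summits, and no test was made of these differences. The 100 bp around the 11 summits were 66.4% ± 5.84 A or T, from 53% at RpL17 and Phe-GAA-1-2 to 74% at Ser-AGA-2-4, against 67.8% around all IDR summits and 57.7% over the 6 arms. The tRNA genes themselves were 43.6% A or T when bound and 41.9% when not. On the gene strand, the A box letters TGGCNNAGT were found in 0 of 14 bound and 35 of 281 other tRNA genes (12.5%), and the B box letters GTTCGANNC in 7 of 14 (50%) and 155 of 281 (55.2%). In the sequences printed above, the B box letters are in Leu-TAA-2-1 and Ser-AGA-2-4 and not in Tyr-GTA-1-8 or Gln-TTG-2-1. The letters TATA were found in the 50 bp before the start of 3 of 14 bound (21.4%), 62 of 281 other tRNA genes (22.1%) and 26.6% of all genes. A run of TTTT, the usual stop signal of RNA polymerase III, followed within 30 bp of the end in 13 of 14 (92.9%) and 268 of 281 (95.4%). A match describes letters only, and a missing match says only that these exact letters are not in the window. It does not mean that a gene lacks an A box or a B box. The A box letters were found in few tRNA genes of either group, so they do not set bound genes apart.

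Other genes read by RNA polymerase III had no IDR summit nearby. None of 108 such genes had an IDR summit within 500 bp, against 16.8% of all genes and 4.92% of arm positions, and 1 had a pooled summit. They were 100 genes named for 5S rRNA, 4 for U6 snRNA, 2 for 7SL RNA, and those for the RNAs of RNase P and RNase MRP. The 5S genes are neighbouring near-identical repeats, so they are not independent, and the placing of their reads is likewise unstated. The other 8 genes, with 0 bound and 1 next to a pooled summit, are too few to set a share.

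Some protein genes of the tRNA pathway were bound at their promoters, and their shares are read against the 19.5% of all coding genes. Of 33 aminoacyl-tRNA synthetase genes, whose enzymes load tRNAs with amino acids, 12 were bound (36.4%, interval 20.4% to 54.9%), with top N counts of 12, 12 and 10 in replicates 1, 2 and 3. They were 9 of 18 genes without the mitochondrial suffix (50%, interval 26.0% to 74.0%) and 3 of 15 with it (20%, interval 4.33% to 48.1%). The intervals of these parts overlapped. Among the 9 were IleRS at rank 472, SerRS at 643 and ThrRS at 1546. For all 33 the lower end of the interval was 20.4%, next to the coding share of 19.5%, and no test was made of this list or its parts. In replicates 1, 2 and 3 the coding shares were 20.8%, 20.7% and 20%, and in the pooled list 15 of the 33 (45.5%) had a summit, against 38.9% of coding genes. The other bound members were AsnRS, ArgRS-m, ProRS-m, AlaRS and GlyRS. The summits at GluProRS, ValRS, AspRS and CysRS-m lay nearest to the starts of other genes. The summits at CysRS-m and AlaRS lay inside a top N peak of 2 replicates, and that at GlyRS of 1.

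Of 26 genes in the list of RNA polymerase III machinery, 7 were bound (26.9%, interval 11.6% to 47.8%), which spans the coding share. They included Bdp1 at rank 294 and Brf at rank 397, both subunits of TFIIIB, and Polr3E at rank 2527, a subunit of the polymerase. The summits at Bdp1 and Brf lay nearest to the starts of CG6565 and sds22. Polr1D, a subunit shared with RNA polymerase I, ranked 5854 with its summit nearest to brat. The other 3, Sin3A, Trf2 and Trf4-1, entered through shared starts of names, and 4 of 19 were bound without such names. The summits at Polr1D and Trf4-1 lay inside a top N peak of 1 replicate, and those at Polr3E and Trf2 of 2. Top N counts for the whole list were 9, 8 and 6 in replicates 1, 2 and 3.

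Of 26 tRNA processing genes found among 32 names sought, 6 were bound (23.1%, interval 8.97% to 43.6%), again spanning the coding share. Tcs5, of the complex that makes the t6A modification, ranked 18 in the IDR list, and Elp5, Elp6 and Elp4, of the Elongator complex that modifies wobble uridines, ranked 112, 167 and 1802. RNaseZ, which cuts the 3′ end of precursor tRNAs, ranked 2838, and La, which binds the ends of new RNA polymerase III transcripts, ranked 6600. The summit at Elp6 lay nearest to the start of Dic1, and that at La lay inside a top N peak of 1 replicate only. Top N counts for this list were 7, 6 and 7 in replicates 1, 2 and 3.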

How the data were processed

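CG44002-eGFP occupancy was measured by ChIP-seq in 3 biological replicates of 1 group, so no contrast and no test between groups was possible. The authors deposited narrowPeak lists on dm6, in which each peak has a signal value whose scale is not stated: 30000 peaks for each replicate, 30000 for the pooled replicates and 7089 after the IDR threshold. Per the deposited file inventory, an alignment and 1 control file went into every list. The control was not analysed here. The sources used here do not name the aligner, the caller of the peaks or the threshold on the IDR. Lists on dm3 were not used. The IDR peaks were the top 7089 of the pooled list by signal, so the IDR counts have no replicate error of their own, and the top N of each replicate gives the SD. Signals were compared within a list and never across lists. Read depth is unknown, so the numbers of replicates, genes and peaks limit the precision.

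Genes came from Ensembl release 115 (BDGP 6.54) without transposable elements, and sequence from the release 6 genome, whose arm lengths held all peak ends. Coordinates are 1-based, and a summit is the start of a peak plus its summit offset. A gene was called bound when any of its starts had a summit at 500 bp or less. A replicate supported an IDR summit when the summit lay inside one of its top N peaks, and the replicate rank is that of the nearest replicate summit within 500 bp. Intervals are 95% exact (Clopper-Pearson) binomial intervals, computed with SciPy 1.17.1 in Python 3.11.15. The limit of 3 counts is not such an interval but 3 divided by the number of genes. Counting was tested on simulated summits placed at known distances. Named are all bound tRNA genes, those with a summit at 500 to 1000 bp, the largest clusters, the sets of identical copies of bound genes, and bound members of the pathway lists. Other genes are marked as chosen after their values were seen. The tRNA genes, lists, strings and alternatives were chosen with earlier results of these data known. The alternatives were other distances, list lengths, cluster gaps and windows, stricter peak sets, each replicate left out and, chosen after seeing the data, counts without pseudogenes, without summits supported by fewer than 2 replicates, without the tRNA genes next to CG44002 and without shared name starts.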

Additional observations from a re-analysis of the deposited data

How the results depend on the processing

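The count of 14 bound tRNA genes depended most on the distance allowed and on how shared summits were assigned. It was 5 at 200 bp and 28 at 1000 bp, 7 when each summit went only to its nearest start of any gene, and 9 among tRNA genes with no coding start within 500 bp. It stayed within 1.5 times of 14 under the others: 14 measured to the nearer gene end, 10 with the stronger 50% of the IDR list, 11 with peaks that every replicate supported, and, chosen after seeing the data, 14 without pseudogenes, 11 with support in 2 or more replicates and 13 without the tRNA genes next to CG44002. Leaving out a replicate gave 11 to 11. The replicate mean of 16.7 was 5 at 200 bp, 33 at 1000 bp and 81.7 with full lists, and 15 to 19.5 with a replicate left out. The 11 bound clusters were 5 at 200 bp, 21 at 1000 bp, 11 with gaps of 2 or 10 kb, and 10 to 10 with a replicate left out. The 7 bound genes with a coding start within 500 bp of the summit were 4 at 200 bp, 8 at 1000 bp and 7 to 7 with a replicate left out. The A or T share upstream of bound genes, 60.3%, was 55.4% in 50 bp, 61.9% in 200 bp and 58.2% to 58.2% with a replicate left out, which in each case took out the 3 Glu genes. Apart from these construction effects the cause was not tested.

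Leaving out a replicate kept the IDR peaks supported by both others, and the pooled list was not called again. No paired analysis was possible because all samples belong to 1 group. Precision is limited by 3 replicates and 14 bound genes at 11 summits, and read depth is unknown.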
